A study of Arabidopsis thaliana with 27 samples.

Results

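Gene expression while cultured Arabidopsis thaliana cells laid down the secondary walls of tracheary elements was set against expression in the same cultures from 24 h to 48 h, before those walls appeared. The wall phase holds the 9 arrays taken at 60 h, 72 h and 84 h after induction, and the pre-wall phase the 9 arrays taken at 24 h, 36 h and 48 h. These 18 of the 27 arrays of the series were chosen by the time in their titles alone, and all 22743 non-control probe sets without an empty value were tested. Every group is the same material, a habituated suspension culture of ecotype Col-0 grown in MS medium with B5 vitamins and sucrose. At 0 h, cells of a week-old culture went into fresh medium of that kind with the auxin NAA, the cytokinin BAP and epibrassinolide, a brassinosteroid, so that both phases carry the same hormones. Per the labels, wall deposition started at 60 h and went on at 72 h and 84 h. At 24 h the cells were losing division and beginning to expand, at 36 h differentiation was in its first steps, and at 48 h it had gone further without secondary wall. Each phase has 3 arrays from each of 3 time-courses lettered A, B and C. The cells were unsorted and the fraction that becomes tracheary elements is not given in the sources used here, so that fewer cells of a type and less RNA per cell cannot be told apart.

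Tracheary elements are the water-conducting cells of xylem, and cells of such cultures turn into them when given auxin, cytokinin and brassinosteroid. A cell on this path first stops dividing and enlarges, then deposits bands of cellulose and xylan beneath its plasma membrane along cortical microtubules, and impregnates them with lignin. It ends by breaking down its own content with proteases and nucleases released from the vacuole, which leaves a hollow tube.

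The 18 arrays had log2 signals from 0 to 12.3 over the table and medians between 0.85 and 1.0, and the lowest correlation between any 2 of them was 0.913. A measure of RNA integrity moved with the phase. The 3′ probe set of the GAPDH control exceeded its 5′ probe set by 1.99 ± 1.49 log2 units in the wall phase, against 0.88 ± 0.52 in the pre-wall phase (SD, n = 9 each). In time-course A this excess was 0.36 to 0.88 in the wall phase, against 0.35 to 0.45 before it. In time-course B it was 3.29 to 4.38, against 0.92 to 1.89, and in time-course C it was 1.33 to 1.77, against 0.49 to 1.11. The wall arrays of B thus stand apart, and counts are also given without that time-course. The part of RNA integrity in the results below was not tested, and counts with the GAPDH difference as a covariate are given with the results.

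**Figure D1:**
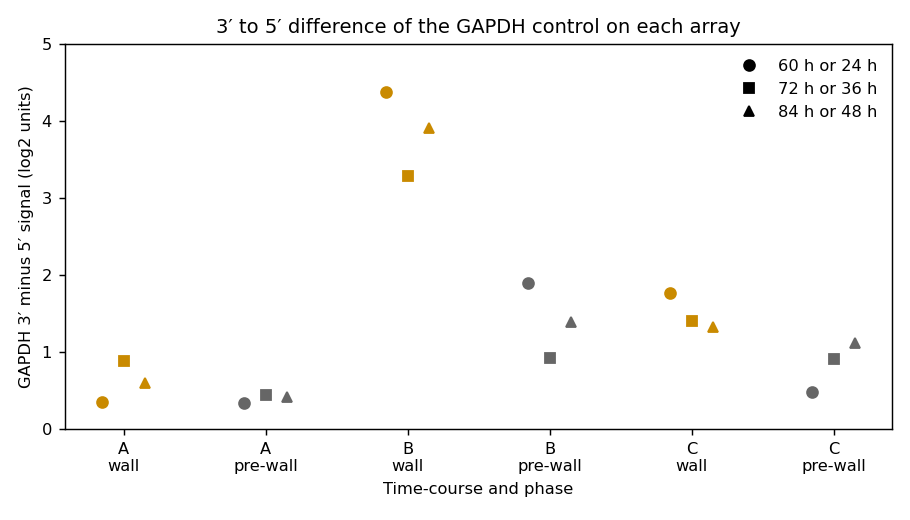
The 3′ minus 5′ signal of the GAPDH control (vertical axis, log2 units) on each of the 18 arrays, by time-course and phase, with wall arrays in ochre and pre-wall arrays in grey and symbols for the time. All 3 wall arrays of time-course B lie at 3.29 or above, while no other array exceeds 1.89.

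The comparison asks which transcripts separate cells that are building secondary wall from the same cultures shortly before. Of 22743 probe sets, 2679 differed at an adjusted p under 0.05 (11.8%), with 1029 higher (4.52%) and 1650 lower (7.25%) in the wall phase. The test was limma with the time-course as a block and Benjamini-Hochberg adjustment over all probe sets. Falls were more numerous than rises, but not with the GAPDH covariate, where 138 rose and 113 fell, and large rises outnumbered large falls. A change of at least 1 log2 unit was seen in 220 of the rises and 138 of the falls, and one of at least 2 units in 68 and 13. The median change was 0.6 among the rises and -0.56 among the falls, against -0.003 over all probe sets. Of the rises, 322 started from a pre-wall mean under 1 log2 unit, near the floor of the table. A difference can be understated there, and whether such signals exceed background was not tested.

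The 3 time-courses gave the same sign for 1015 of the 1029 rises and 1628 of the 1650 falls, against 9563 of all 22743 probe sets. Without time-course B, 432 probe sets rose (1.9%) and 607 fell (2.67%), and 386 of the 1029 rises and 572 of the 1650 falls were among them. None of the 2679 changed its sign there. The calls were made on these same arrays by a test that favours agreement between time-courses. The agreement in sign follows in large part from that choice and is no separate support. With the GAPDH difference as a covariate, 251 probe sets were called. With a single mean per time-course and phase, 787 were called, and 1363 without the time-course block. Arrays of a time-course are successive samples of a culture, so that the count at the level of time-courses rests on 3 pairs of values. An exact sign-flip test of 3 pairs cannot give a two-sided p below 0.25. Of 104 called genes named below, 79 stayed called without each single array, 36 without each single time-course and 52 without B. Where a loss without a given time-course is named below, the call may also have been lost without another. Among the gene lists described below, the GAPDH covariate left called members in few. These were 3 of xylan synthesis, 2 carboxypeptidase-like genes, HCT, PAP20, and 1 each among the expansins, the TBL family, the tubulins, the UDP-glycosyltransferases and the actin-linked proteins. Complete separation, with every wall array above every pre-wall array, was found for 68 probe sets (0.299%), and the reverse for 95 (0.418%).

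**Figure D2:**
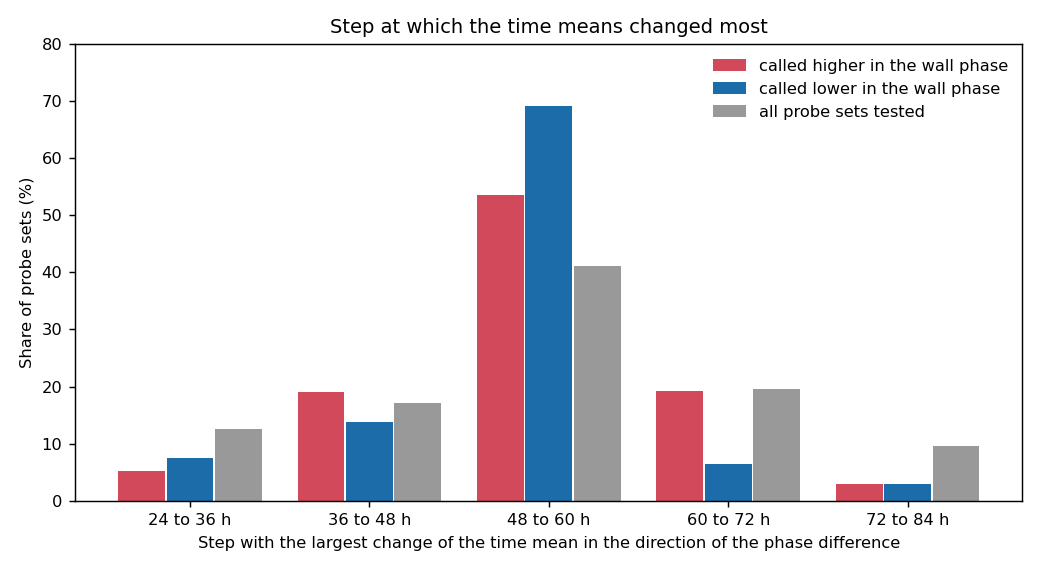
Share of probe sets (vertical axis, percent) whose time mean changed most, in the direction of the phase difference, at each 12 h step from 24 h to 84 h (horizontal axis), for called rises, called falls and all probe sets. The step from 48 h to 60 h holds 53.6% of the rises and 69.2% of the falls, against 41.2% of all probe sets.

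For 552 of the rises and 1141 of the falls the largest step lay between 48 h and 60 h, the step that crosses the boundary between the phases. A further 195 rises (19%) and 228 falls (13.8%) had it between 36 h and 48 h, while the cells were still without secondary wall. Of all probe sets 17.1% had it there, near the share of the rises. For 198 rises (19.2%) and 108 falls (6.5%) it came later, between 60 h and 72 h, against 19.5% of all probe sets. Of the 220 rises of at least 1 unit, 69 had their largest step between 36 h and 48 h, 89 between 48 h and 60 h and 52 between 60 h and 72 h.

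The largest rises came from genes that were low at 24 h and 36 h and were named in the annotation by locus alone, so that no role can be given for them here. AT5G51890 had signals of 5.94, 7.16 and 7.61 log2 units in the wall phase, against 0.53, 1.23 and 5.84 in the pre-wall phase (lowest, median and highest of 9 arrays each). All wall arrays exceeded all pre-wall arrays, and the high pre-wall values were those of 48 h. Its difference was 4.49 ± 0.72 (SE), a 22.5-fold change of signal, with an adjusted p of 9.15e-04. The time means were 0.68 at 24 h, 1.36 at 36 h, 5.26 at 48 h, 6.93 at 60 h, 7.18 at 72 h and 6.65 at 84 h, so that most of this rise came before walls were described. AT3G27200 had 5.68, 7.13 and 8.72 in the wall phase, against 0.67, 1.99 and 6.78 in the pre-wall phase, and rose by 4.09 ± 0.92 (adjusted p = 0.0076). Of its wall arrays 5 lay above every pre-wall array, and its mean was highest at 60 h, at 8.26. It is the only gene of the 12 largest rises that lost its call without time-course B (4.05).

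AT5G40020 reached 4.13, 5.72 and 6.56 in the wall phase, against 0.80, 1.26 and 4.27 before it, and rose by 3.64 ± 0.48. AT5G26330 reached 4.16, 5.30 and 6.58, against 0.44, 0.86 and 4.65, and rose by 3.37 ± 0.65. AT5G38610 rose by 3.28 ± 0.69 and AT1G70500 by 3.11 ± 0.48. In each of these 4 genes the phases overlapped between 48 h arrays and wall arrays of 72 h or 84 h. AT4G18425 differed in timing. It had 1.93, 2.58 and 5.30 in the wall phase, against 0.00, 0.24 and 1.23 before it, with no overlap. Its mean was 0.96 at 48 h and 4.19 at 60 h, and its difference was 2.76 ± 0.44. The remaining genes of the 12 were AT2G17710 (2.90), AT1G23460 (2.77), AT3G52900 (2.75), AT4G27435 (2.72) and AT2G03200 (2.71). AT4G27435 was the least even between time-courses, with differences of 3.65 in A, 1.25 in B and 3.25 in C. Without time-course C, AT4G27435 (2.45), AT3G27200 (4.2) and AT2G03200 (2.61) lost their calls.

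**Figure D3:**
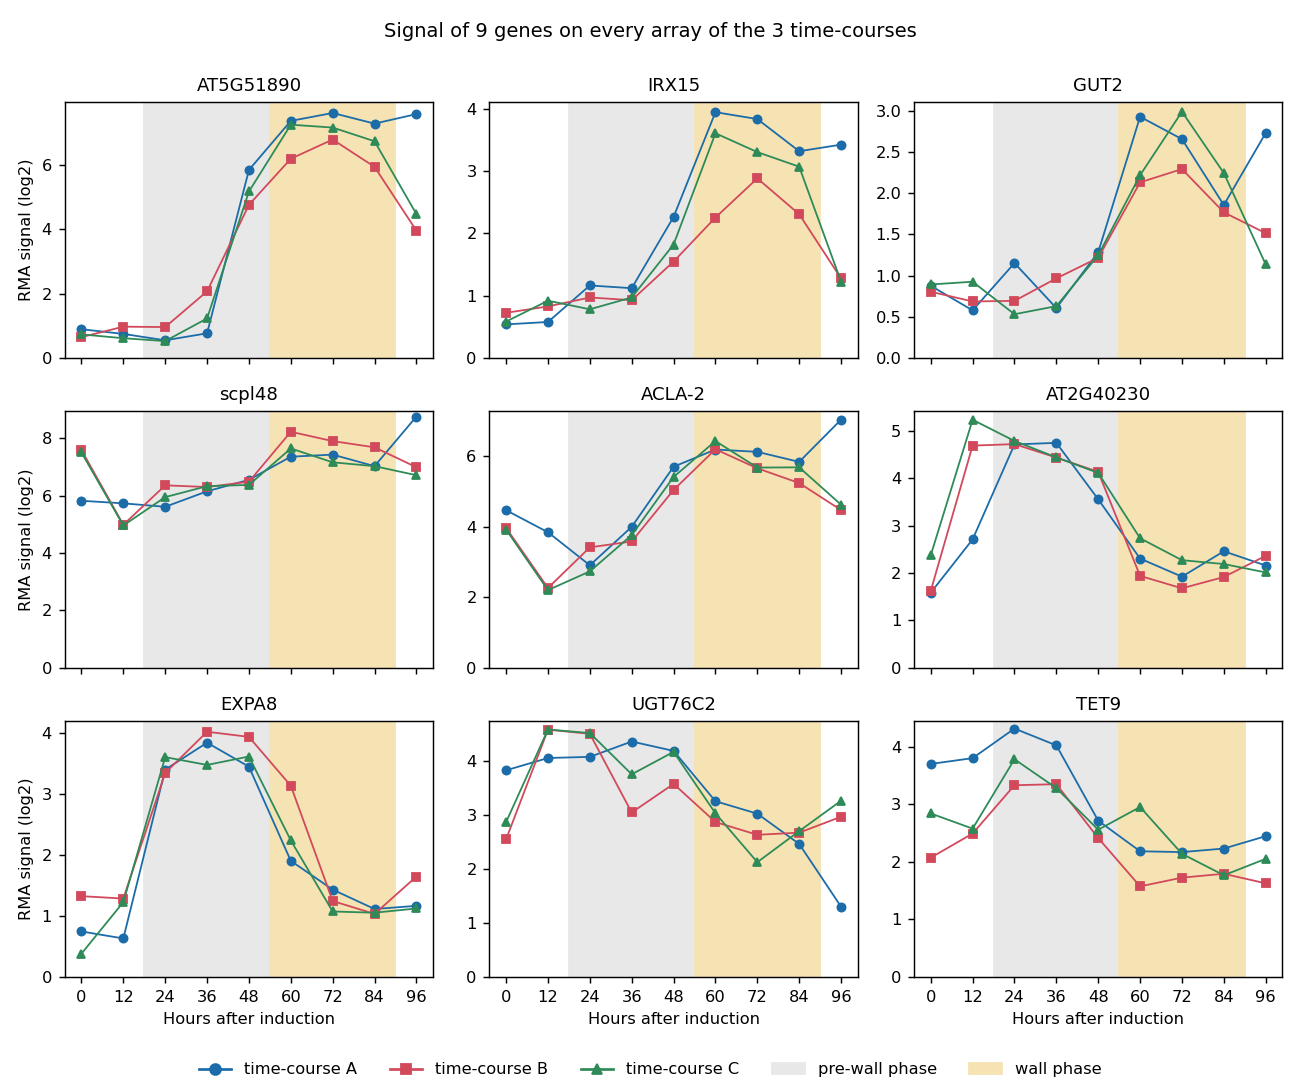
Signal (vertical axes, log2 units) against hours after induction for 9 genes, with 1 line per time-course and grey and ochre bands for the pre-wall and wall phases. AT5G51890 and ACLA-2 climb by 48 h, IRX15 and GUT2 peak at 60 h or 72 h, and the 4 genes that fell are low on the 72 h and 84 h arrays.

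**Figure D4:**
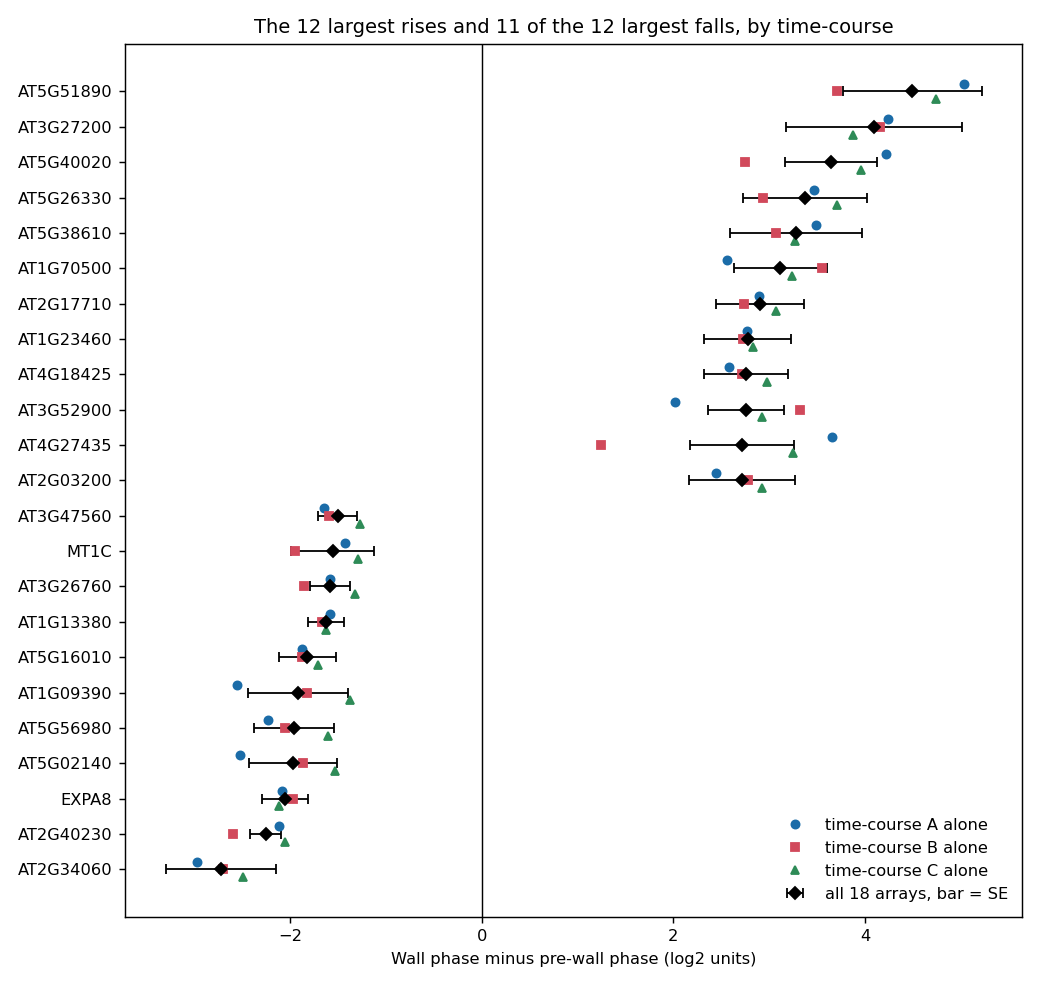
Wall minus pre-wall difference (horizontal axis, log2 units) of the 12 largest rises and 11 of the 12 largest falls, with all 18 arrays (diamonds, bars are SE) and each time-course alone. By the rule that chose the genes, the 3 time-courses agree in sign. AT4G27435 spreads most among the rises, from 1.25 in B to 3.65 in A.

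The falls were smaller and came later for some genes than the pooled value shows. AT2G34060 was still high at 60 h, with a mean of 4.95, and dropped to 1.81 at 72 h and 1.26 at 84 h. Its wall arrays ran from 1.23 over a median of 1.65 to 5.45, against 4.97, 5.33 and 5.99 on the pre-wall arrays, for a difference of -2.72 ± 0.58. AT5G02140, AT5G56980 and AT1G09390 shared this late drop, with 60 h means of 3.00, 3.10 and 3.61 and 72 h means of 0.61, 0.69 and 0.80. Without time-course A, AT2G34060 (-2.59), AT5G02140 (-1.69) and AT5G56980 (-1.83) lost their calls. AT1G09390 lost its call whenever a whole time-course was left out (-1.60 without A, -1.96 without B and -2.19 without C).

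Other genes had begun to drop by 60 h, except MT1C. AT2G40230 had 1.67, 2.19 and 2.73 in the wall phase, against 3.55, 4.44 and 4.79 before it, with no overlap and a difference of -2.25 ± 0.16 (adjusted p = 2.43e-06). EXPA8, an alpha-expansin of the proteins that loosen growing walls, had 1.04, 1.25 and 3.14, against 3.35, 3.60 and 4.02, also with no overlap. It fell by 2.05 ± 0.24 on the log2 scale (adjusted p = 9.86e-05), with means of 2.43 at 60 h and 1.25 at 72 h. AT1G13380 and AT3G26760 were separated as well, with 2.19 to 3.25 in the wall phase against 3.60 to 4.96 before it for the first and 3.13 to 4.43 against 4.61 to 6.16 for the other. MT1C, a metallothionein, had means of 2.73 at 48 h, 3.35 at 60 h and 1.83 at 72 h. It differed by -1.55 ± 0.43 and was less firm: 5 of 18 single-array omissions ended its call, at values of -1.75 to -1.35 over all 18. It also lost its call without A (-1.62), without B (-1.36) and without C (-1.685). AT5G16010 fell by 1.82 and AT3G47560 by 1.5 on the log2 scale.

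Xylan is the main hemicellulose of secondary walls. Of 4 measured genes of its synthesis and their relatives 3 rose and none fell, with a median difference of 1.43, against -0.003 over all probe sets; among the 13362 genes represented on the annotation, 3.91% rose and 6.67% fell. Gene lists here and below hold only genes that the annotation names by symbol, so that members known by locus alone, among them most of the largest rises and falls, are not counted in any family. IRX15, needed for normal xylan in xylem, had 2.26, 3.31 and 3.95 in the wall phase, against 0.78, 1.12 and 2.27 in the pre-wall phase. All but the 60 h array of B lay above every pre-wall array, and the difference was 1.88 ± 0.20 (adjusted p = 4.66e-05). Its homologue IRX15-L had 3.56, 3.78 and 4.58, against 1.84, 2.58 and 3.28, with no overlap and a difference of 1.45 ± 0.15. GUT2, also named IRX10, a glycosyltransferase of the xylan backbone, had 1.77, 2.24 and 2.99, against 0.53, 0.97 and 1.28, again with no overlap. It rose by 1.42 ± 0.17 (adjusted p = 1.11e-04). GUT1, its close relative, had 4.14 to 4.60 in the wall phase and 4.32 to 4.85 in the pre-wall phase, a difference of -0.11 ± 0.09 that did not pass the test. The 3 rises held without each time-course and with the GAPDH covariate.

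In time, IRX15 and GUT2 were low until 36 h and began to climb at 48 h, with 48 h means of 1.88 and 1.25 and 72 h means of 3.34 and 2.65. IRX15-L was already high at 0 h, with a mean of 4.47, fell to 1.16 at 12 h and was back at 3.77 by 60 h. Thus, of these 3, IRX15-L alone had a mean at 0 h above its wall-phase mean of 3.90. Within the TBL family, whose studied members acetylate wall polysaccharides, 2 of 22 measured members rose and none fell. The risers were 9.09% of the list, against 3.91% of all represented genes, and the list median was 0.05. TBL34, which acetylates xylan, had 0.69, 1.48 and 2.0 in the wall phase, against 0.09, 0.41 and 1.11 before it, and rose by 1.07 ± 0.17. TBL36 was high throughout and rose by 0.57 ± 0.10, with 9.09 to 10.13 in the wall phase against 8.65 to 9.60. In TBL34 only 1 wall array fell within the pre-wall range.

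Cellulose synthesis and lignin could be followed in few genes. COB, an anchored protein that orients cellulose in expanding walls, had 5.85, 6.12 and 6.30 in the wall phase, against 6.16, 6.45 and 6.65 before it, and fell by 0.35 ± 0.08. Its call was lost without time-course A (-0.27) and without B (-0.34). HCT, an acyltransferase on the way to the main lignin monomers, had 4.1, 5.02 and 5.45, against 3.76, 4.01 and 4.59. It rose by 0.77 ± 0.14, with 6 wall arrays above every pre-wall array, but by 1.19 in A, 0.21 in B and 0.91 in C, and lost its call without A (0.56) or C (0.70). HCT was the only called gene among 11 measured genes of lignin monomers and their glucosides (median -0.02). That is 9.09%, against 3.91% of all represented genes that rose. CCR2, a cinnamoyl-CoA reductase, differed by 0.15 ± 0.09 and was not called.

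Of 5 oxidases of the wall with a gene symbol, peroxidases, a laccase and a copper amine oxidase, none was called. Oxidases known by locus alone were not counted and may be among the largest rises and falls, so the count does not speak for the family. PRX52, a class III peroxidase linked to lignin in Arabidopsis stems, peaked on both sides of the boundary between the phases. Its time means were 5.08 at 24 h, 4.98 at 36 h, 7.05 at 48 h, 6.90 at 60 h, 4.49 at 72 h and 4.37 at 84 h. The pooled difference was -0.45 ± 0.55, while 48 h exceeded 24 h (adjusted p = 0.0061) and 84 h lay below 60 h (adjusted p = 9.70e-04). PRXR1 differed by 0.44 ± 0.23 and did not pass.

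Genes of self-digestion moved in some families and not in others. Serine carboxypeptidase-like proteins are vacuolar or secreted enzymes, some of them peptidases and some acyltransferases. Of 29 measured members 5 rose (17.2%, against 3.91% of all represented genes) and none fell, with a family median of -0.05. The gene scpl48 had 7.03, 7.44 and 8.23 in the wall phase, against 5.61, 6.33 and 6.56 in the pre-wall phase, with no overlap and a difference of 1.26 ± 0.13 (adjusted p = 4.27e-05). The low member scpl25 was separated too, at 1.23 to 2.29 against 0.63 to 1.19, and rose by 0.88 ± 0.12. SCPL34 had 2.1, 3.85 and 4.44, against 0.83, 1.47 and 3.09, and rose by 1.58 ± 0.38, while scpl29 rose by 1.23 ± 0.25. SCPL34 did so late, since its mean was 2.96 at 48 h, 2.53 at 60 h and 4.09 at 72 h. SCPL45 rose by 0.50 ± 0.15 but lost its call in 6 of 18 single-array omissions (0.39 to 0.56 over all 18). Without time-course B, 3 of the family rose, since SCPL34 (1.5) and SCPL45 (0.31) missed the threshold.

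The vacuolar processing enzymes are cysteine proteases that mature other vacuolar proteins and take part in plant cell death. GAMMA-VPE had 5.45, 5.71 and 6.07 in the wall phase, against 4.11, 5.24 and 5.90 before it, and rose by 0.66 ± 0.20 (adjusted p = 0.0432). ALPHA-VPE rose by 0.79 ± 0.24, with a peak mean of 2.34 at 60 h and means of 1.02 at 48 h and 1.27 at 72 h. BETA-VPE differed by -0.23 ± 0.23 and was not called. Both calls were weak: 13 of 18 single-array omissions ended that of GAMMA-VPE and 9 of 18 that of ALPHA-VPE, and neither held without time-course B (0.65 and 0.82). GAMMA-VPE in particular had changed before the wall phase, with means of 4.37 at 24 h and 5.68 at 48 h.

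Of 8 measured autophagy genes 2 rose (25%, against 3.91% of all represented genes) and none fell (median 0.31). ATG8F, a ubiquitin-like protein that coats autophagosomes, had 3.73, 4.22 and 4.78 in the wall phase, against 2.33, 3.14 and 4.2 before it, and rose by 1.19 ± 0.22 (adjusted p = 0.0026). Its difference was 1.79 in time-course B, against 0.85 in A and 0.91 in C, and it was not called without B (0.88). ATG8H rose by 0.41 ± 0.13, a call that 13 of 18 single-array omissions ended. Its signals lay near the floor, at 0.37 to 1.55 in the wall phase and 0.19 to 0.59 before it. ATG8E, not called, differed by 0.47 ± 0.27, since its mean was 0.28 at 60 h and 1.71 at 84 h. Among 9 subtilisin-like proteases none rose, and ARA12 alone fell, by 0.49 ± 0.13 (-0.29 without B, not called). That is 11.1% of the list, against 6.67% of all represented genes. PAP20, a purple acid phosphatase, had 1.91, 3.90 and 4.49 in the wall phase, against 0.42, 1.57 and 2.13 in the pre-wall phase. Of its wall arrays 7 lay above every pre-wall array, and it rose by 2.13 ± 0.39 (adjusted p = 0.0020), with means of 2.19 at 60 h and 4.22 at 72 h.

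Most called genes of the cytoskeleton were higher in the wall phase. Of 7 tubulins, TUB5, a beta-tubulin, rose and TUA1, an alpha-tubulin, fell (14.3% each, against 3.91% and 6.67% of all represented genes). TUB5 had 2.02, 3.46 and 4.29 in the wall phase, against 1.21, 1.94 and 2.76 before it, and rose by 1.34 ± 0.27. TUA1 differed by -0.57 ± 0.13 and was not called without B (-0.46) or without C (-0.58), and TUB5 was not without A (1.29). Among 38 proteins of the IQD, TRM and SPIRAL families and other microtubule-associated proteins, 5 rose and none fell (median 0.06). The risers were 13.2% of the list, against 3.91% of all represented genes. TON1B, a protein of the cortical microtubule array, rose by 0.83 ± 0.20, IQD30 by 0.67 ± 0.15 and TRM15 by 0.60 ± 0.10. KINESIN-13A, which shortens microtubules at pits of xylem walls, rose by 0.38 ± 0.10, and SPR1, a plus-end protein, by 0.20 ± 0.06. TRM15 held without each time-course, and TON1B held without B but not without A (0.84) or C (0.86), whereas IQD30 (0.43) and SPR1 (0.21) did not. KINESIN-13A was not called without A (0.40), without B (0.42) or without C (0.33), and 6 of 18 single-array omissions ended the call of SPR1 (0.18 to 0.22 over all 18).

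Among 25 myosins, NET proteins and LIM proteins of the actin cytoskeleton and its regulators 4 rose and none fell (median 0.06). Those 4 are 16% of the list, against 3.91% of all represented genes. PIR121, a subunit of the WAVE complex that promotes actin branching, rose by 1.00 ± 0.28, with 2.73, 3.84 and 5.17 in the wall phase against 1.74, 2.86 and 3.97. Its call was lost in 3 of 18 single-array omissions, those of 24 h in A, 36 h in B and 36 h in C (0.92, 0.89 and 0.88). XI-I, a myosin, rose by 0.95 ± 0.16, WLIM2a, an actin-bundling protein, by 0.80 ± 0.18 and NET1B, an actin-binding protein, by 0.41 ± 0.12. WLIM2a rose by 1.05 in A and 1.17 in C but 0.19 in B, whereas XI-I rose by 0.44 in A, 1.56 in B and 0.84 in C. The call of WLIM2a was lost without A (0.68) or C (0.62). NET1B (0.24) and PIR121 (0.96) were not called without B, and NET1B lost its call in 4 of 18 single-array omissions (0.33 to 0.48 over all 18).

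No mitotic gene was called lower in the wall phase, which per the labels follows the loss of division. Of 11 measured genes of mitosis and cytokinesis 3 rose (27.3%, against 3.91% of all represented genes) and none fell, with a median of 0.40. The chromosomal protein 3xHMG-box2, bound to condensed chromosomes, had 3.36, 4.00 and 5.90 in the wall phase, against 2.09, 3.13 and 3.74 before it, and rose by 1.19 ± 0.25. Its relative 3xHMG-box1 had 0.69, 1.51 and 3.48, against 0.19, 0.60 and 1.2, and rose by 1.13 ± 0.21, with 2.11 in time-course B against 0.40 in A and 0.87 in C. Of the wall arrays 6 of 9 lay above every pre-wall array for each of the pair. BUBR1, a spindle checkpoint protein, rose by 0.40 ± 0.12, and 9 of 18 single-array omissions ended its call. The Aurora kinases AUR1 and AUR2 differed by 0.48 ± 0.29 and 0.59 ± 0.27 and were not called. AUR2 was called without the 60 h array of B alone (0.79), and without all 60 h arrays both AUR1 (0.85) and AUR2 (0.93) were called. Without all of B the count was again 3, with AUR2 (0.87) called in place of BUBR1 (0.34). The 3xHMG-box2 means were 5.0 at 0 h, 0.81 at 12 h, 3.23 at 48 h and 4.84 at 72 h.

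Of 18 measured expansins, proteins that loosen growing walls, 4 fell and none rose (22.2%, against 6.67% of all represented genes that fell), and the family median was -0.04. Beside EXPA8, EXPB3 fell by 0.72 ± 0.19, EXLA2 by 0.56 ± 0.08 and EXPA4 by 0.56 ± 0.15. EXLA2 had 4.25, 4.76 and 5.16 in the wall phase, against 4.99, 5.21 and 5.72 in the pre-wall phase, with 8 wall arrays below every pre-wall array. EXPB3 and EXPA4 remained high in both phases, at 5.70 to 7.56 against 7.1 to 8.09 and at 7.87 to 10.25 against 8.78 to 10.58. Both lost their calls without B (-0.45 and -0.28), so that 2 expansins fell there, and 1 was called with the GAPDH covariate.

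Xyloglucan endotransglucosylases cut and rejoin the hemicellulose xyloglucan of primary walls, and 1 of 10 fell (10%, against 6.67% of all represented genes). XTH32 had 2.66, 3.96 and 4.95 in the wall phase, against 3.48, 5.12 and 6.68 before it, and fell by 1.10 ± 0.26, with -0.97 without B, where it was not called, and -1.04 without A, where it was not either. XTH19 differed by -0.65 ± 0.30 and was not called. Among 15 GH9 cellulases, endoglucanases of which some act in cellulose synthesis, GH9A3 rose by 0.37 ± 0.08 and GH9B5 by 0.34 ± 0.09. Neither was called without B (0.27 and 0.19). The risers were 13.3% of the list, against 3.91% of all represented genes. GH9B5 lay near the floor, with means of 0.50 in the wall phase and 0.17 before it. None of 5 genes of pectin, 8 cellulose synthase-like genes and 20 beta-glucosidases with a gene symbol was called. Members known by locus alone were not counted and may be among the largest rises and falls.

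**Figure D5:**
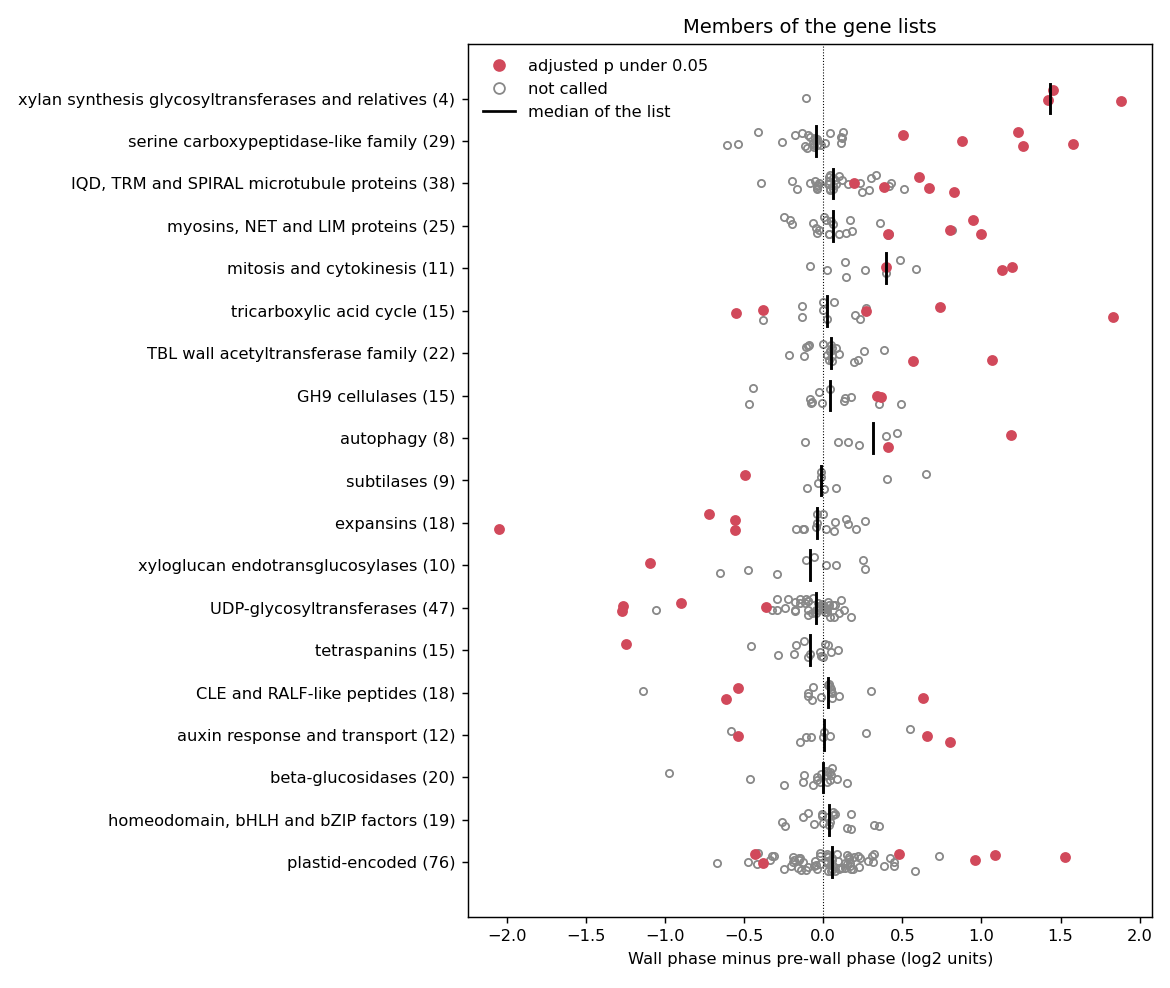
Wall minus pre-wall difference (horizontal axis, log2 units) of every measured member of 19 gene lists, with the number of members in brackets, called members filled and the median as a bar. The xylan genes sit at a median of 1.43, and the called expansins and UDP-glycosyltransferases all lie below 0.

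Hormone-related genes changed in both directions although the hormones had been added at 0 h. ARR15, a response regulator that cytokinin induces, had 0.41, 1.02 and 1.44 in the wall phase, against 1.28, 2.05 and 2.65 before it, with 8 wall arrays below every pre-wall array. It fell by 0.96 ± 0.20 (adjusted p = 0.0043), from a mean that had peaked at 12 h, at 2.97, and lost its call without A (-0.80). Among 12 auxin genes WES1 (GH3.5) and GH3.3, enzymes that conjugate auxin to amino acids, rose by 0.80 ± 0.21 and 0.66 ± 0.17. IAA18, a repressor of auxin response, fell by 0.54 ± 0.15. Of these auxin genes 16.7% rose and 8.33% fell, against 3.91% and 6.67% of all represented genes. GH3.3 had 3.09, 3.70 and 4.04 in the wall phase, against 2.25, 3.16 and 3.54, far under its 12 h mean of 7.00. WES1 rose by 0.17 in B, against 1.04 in A and 1.2 in C, and lost its call without A (0.68) or C (0.60). GH3.3 (0.72) and IAA18 (-0.57) were not called without B, nor was IAA18 without the 24 h array of B (-0.49). IAA18 was also not called without A (-0.50) or C (-0.55), nor was GH3.3 without C (0.51). BRL1, a brassinosteroid receptor of vascular tissue, fell by 0.61 ± 0.18 in a call that 13 of 18 single-array omissions ended.

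Few regulators of vascular identity could be followed, and 2 rose. PHV, a class III homeodomain-leucine zipper protein that helps pattern vascular tissue, had 5.73, 6.32 and 6.86 in the wall phase, against 4.66, 5.54 and 6.02 in the pre-wall phase. It rose by 0.86 ± 0.16 (adjusted p = 0.0028), with 7 wall arrays above every pre-wall array, and its mean of 6.64 at 84 h exceeded that of 5.93 at 60 h. LHW, a bHLH protein that promotes divisions of vascular initials, rose by 0.63 ± 0.14, with 0.33 in A, 0.83 in B and 0.72 in C, and was not called without B (0.53). PHV lost its call without C (0.82). WRKY6, a factor of stress and senescence, rose by 0.83 ± 0.23 and lost its call in 3 of 18 single-array omissions, those of 24 h in B, 24 h in C and 36 h in C (0.78, 0.72 and 0.77). PHV was the only measured gene of a list of 39 names of xylem transcription factors, so the list gives no share. LHW was the only riser of a list of 11 auxin-linked factors (9.09%, against 3.91% of all represented genes). No member of a list of 19 further homeodomain, bHLH and bZIP factors was called.

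Among 18 CLE and RALF-like peptides, small secreted signals, RALFL32 rose by 0.63 ± 0.14, and RALFL33 and RALFL22 fell by 0.62 ± 0.13 and 0.54 ± 0.10. Thus 5.56% rose and 11.1% fell, against 3.91% and 6.67% of all represented genes. RALFL32 lay near the floor, with means of 0.98 in the wall phase and 0.35 before it. RALFL22 had 6.12, 6.46 and 6.99 in the wall phase, against 6.78, 7.08 and 7.26, and RALFL33 had 6.56, 7.37 and 7.96, against 7.70, 7.91 and 8.31. Neither fall was called without B (-0.40 each), and RALFL32 was not called without C (0.51). CLE41, whose peptide inhibits xylem differentiation, differed by -1.14 ± 0.41 and missed the threshold (adjusted p = 0.0853). Much of its decline lay inside the pre-wall phase. Its means were 4.71 at 24 h, 3.25 at 36 h, 1.97 at 48 h and 1.69 at 60 h. Its difference passed without the 48 h array of A (-1.39) and without all 48 h arrays (-1.81).

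Single members of other families fell. TET9, a tetraspanin of the plasma membrane, had 1.57, 2.14 and 2.95 in the wall phase, against 2.41, 3.33 and 4.31, and fell by 1.25 ± 0.23 (adjusted p = 0.0020) as the only called member of 15 tetraspanins (6.67%, the same share as of all represented genes). BIK1, a cytoplasmic kinase of immune signalling, had 2.90, 3.95 and 4.44, against 4.2, 4.81 and 5.21, and fell by 0.87 ± 0.16. With BRL1 it made up the 2 called of 10 receptor kinases and their partners (20%, against 6.67% of all represented genes that fell). TET9 had 8 and BIK1 7 wall arrays below every pre-wall array, and both calls held without each time-course. The defensin genes PDF1.4 and PDF1.2 fell by 0.86 ± 0.25 and 0.35 ± 0.10. Neither was called without B (-0.86 and -0.28), and 10 and 3 of 18 single-array omissions ended the calls. CML42, a calmodulin-like protein, fell by 0.59 ± 0.15 (-0.50 without B, not called).

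One gene of acetyl-CoA supply rose strongly. ATP-citrate lyase makes cytosolic acetyl-CoA from citrate. ACLA-2, a gene of its A subunit, had 5.24, 5.84 and 6.43 in the wall phase, against 2.73, 3.76 and 5.70 before it, and rose by 1.83 ± 0.37 (adjusted p = 0.0037). The overlap came from 48 h, where its mean was 5.39 and already far above that of 3.02 at 24 h. ACLA-1 rose by 0.74 ± 0.20 (0.75 without B, not called), while ACLA-3 and the B-subunit gene ACLB-1 differed by -0.38 ± 0.13 and 0.23 ± 0.13 and were not called. In all, 3 of 15 genes of the tricarboxylic acid cycle and citrate use rose (20%) and 2 fell (13.3%), with a median of 0.02. Of all represented genes 3.91% rose and 6.67% fell. The others were cICDH (0.27), IDH-V (-0.55) and SDH2-2 (-0.38), dehydrogenases of isocitrate and succinate. Those 3 calls were lost in 11, 14 and 13 of 18 single-array omissions.

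Of 47 UDP-glycosyltransferases, which attach sugars to hormones and other small molecules, 4 fell and none rose (median -0.05). That is 8.51% of the family, near the 6.67% of all represented genes that fell. UGT76C2, which glucosylates cytokinins, had 2.13, 2.71 and 3.26 in the wall phase, against 3.05, 4.18 and 4.53, and fell by 1.27 ± 0.18 (adjusted p = 4.15e-04). UGT88A1 had 2.24, 2.88 and 3.63, against 3.52, 3.95 and 4.85, and fell by 1.27 ± 0.20, while UGT87A2 fell by 0.90 ± 0.14. In each of these 3 all but 1 wall array lay below every pre-wall array, and each call held without each time-course. UGT85A2 fell by 0.36 ± 0.11, and 15 of 18 single-array omissions ended its call. The dehydrins COR47 and LTI30 went apart, with 0.83 ± 0.25 and -0.79 ± 0.19. Neither was called without B (0.73 and -0.78), and 10 of 18 single-array omissions ended the call of COR47.

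Secretion and endosomal sorting changed in few members. Of 18 exocyst and SNARE-associated genes, SEC6, an exocyst subunit, rose by 0.54 ± 0.15 and AtSec20, a SNARE of the Golgi and endoplasmic reticulum, by 0.35 ± 0.10. They are 11.1% of the list, against 3.91% of all represented genes. SEC6 lost its call in 6 of 18 single-array omissions and AtSec20 without the 24 h array of C (0.32), and neither was called without B (0.43 and 0.41). VPS60.2, of the ESCRT machinery that forms multivesicular bodies, had 4.23, 4.59 and 5.33 in the wall phase, against 3.16, 3.78 and 4.34. It rose by 0.84 ± 0.17, and by 0.37 in A, 1.45 in B and 0.69 in C. It was the only called gene of 12 (8.33%, against 3.91% of all represented genes that rose). Its call was lost without C (0.91). KEU, a partner of cytokinesis SNAREs, differed by 0.49 ± 0.17 and was not called. Single genes were called in 3 other lists: PUB43, a U-box ubiquitin ligase, rose by 0.43 ± 0.12, chr31, a chromatin remodeller, rose by 0.49 ± 0.11, and PGY1, a ribosomal protein, fell by 0.42 ± 0.09. PUB43 was 1 of 9 (11.1%) and chr31 1 of 21 (4.76%), against 3.91% of all represented genes that rose. PGY1 was the only measured member of its list. PUB43 lost its call in 2 of 18 single-array omissions, those of 24 h in A (0.40) and 36 h in B (0.37), and chr31 without B (0.30). Leaving out A or C also ended the call of PUB43 (0.38 and 0.53), and leaving out C that of PGY1 (-0.46).

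Plastid-encoded transcripts that rose did so most in time-course B, which had the largest GAPDH differences. Of 76 plastid-encoded genes 4 rose (5.26%) and 2 fell (2.63%), against 3.91% and 6.67% of all represented genes (median 0.05). The ribosomal protein gene rpl20 had 1.07, 2.89 and 6.14 in the wall phase, against 0.64, 1.15 and 3.46, and rose by 1.53 ± 0.29, with 2.81 in B, 1.37 in C and 0.40 in A. The polymerase subunit gene rpoA rose by 1.09 ± 0.21, rps19 by 0.96 ± 0.25 and atpE by 0.48 ± 0.11. All 3 wall arrays of B exceeded every pre-wall array in rpl20, rpoA and rps19, and no wall array of A or C did. In the pre-wall phase too, the highest value of each was an array of B. The genes that fell were atpA, by 0.43 ± 0.13, and rps7, whose probe set serves both of its gene copies, by 0.38 ± 0.12, and 13 of 18 single-array omissions ended the call of atpA. The atpA means lay near the floor, at 0.46 in the wall phase and 0.89 before it. Without B none of the 76 rose, and rps7 (-0.58) and psbA (-0.30) fell. Of 15 mitochondrial genes nad4L rose by 0.88 ± 0.22, ccb452 by 0.76 ± 0.21 and ccb203 by 0.24 ± 0.07, and none was called without B (0.76, 0.66 and 0.21). With all 18 arrays these risers were 20% of the list, against 3.91% of all represented genes. The single 84 h array of B also ended the call of ccb452 when left out (0.69), as did 10 of 18 arrays that of ccb203.

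Several lists with at least 4 measured members had no called member among the genes named by symbol. These were 13 glutathione transferases, 17 genes of sugar transport and sucrose cleavage, 12 of the vacuolar proton pump and endomembrane folding, 9 nuclear photosynthesis genes, 4 of chaperones, 4 cupredoxins and b-type cytochromes and 4 of DNA replication. Their largest absolute difference was -0.93, in GSTU25. Of the markers by which the cell types were to be checked, only those with a symbol in the annotation could be matched. The check is thus partial, since others may be among the genes known by locus alone. For tracheary elements the matched markers were IRX15, IRX15-L and GUT2, and all rose. Of the defining genes for other types, CLE41 of phloem and the Aurora kinases of dividing cells were matched, and none was called with all 18 arrays. CLE41 was called without the 48 h arrays and the Aurora kinases without the 60 h arrays.

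The phases were not uniform inside. Within the wall phase 683 probe sets were higher (3%) and 412 lower (1.81%) at 84 h than at 60 h. Within the pre-wall phase 392 were higher (1.72%) and 352 lower (1.55%) at 48 h than at 24 h. Of the 1029 pooled rises, 140 were already higher at 48 h than at 24 h and 0 were lower, 77 were lower at 84 h than at 60 h and 120 were higher. Of the 1650 pooled falls, 113 were lower at 48 h than at 24 h, 56 were lower at 84 h than at 60 h and 23 were higher. These comparisons share arrays with the pooled one, so that such overlaps are counts alone. Among the 12 largest rises, 11 were higher at 48 h than at 24 h, 10 had their highest mean of these times at 60 h, and 7 had dropped by 84 h. Among the 12 largest falls, 9 were lower at 84 h than at 60 h.

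Arrays outside the contrast give the values before and after it. The share over all probe sets was not taken for them, so that what follows are counts alone. They rest on the mean over time-courses, and how many hold in each time-course was not counted. At 96 h, when the labels describe completed walls, the mean lay on the wall side of the middle of the 2 phase means for 833 of the 1029 rises and 1475 of the 1650 falls. At 12 h that held for 358 rises and 844 falls, and at 0 h, in dividing cells, for 646 rises and 1359 falls. Among the changes of at least 1 log2 unit it held at 0 h for 85 of 220 rises and 105 of 138 falls, and at 96 h for 167 and 136. EXPA8 is such a case, with a mean of 0.82 at 0 h, 1.05 at 12 h and 1.31 at 96 h around its pre-wall level. TUB5 is the mirror case, with 4.80 at 0 h, 1.07 at 12 h and 3.20 at 96 h. IRX15 and AT5G51890 were low at 0 h, with means of 0.62 and 0.76, and differed between time-courses at 96 h. There IRX15 had 3.43 in A, 1.28 in B and 1.23 in C, so that A alone stayed near its wall-phase level. AT5G51890 had 7.58 in A, 3.96 in B and 4.47 in C. Others of the 12 largest rises were split at 96 h as well. AT4G18425 had 6.13 in A, 0.34 in B and 0.55 in C, and AT1G70500 had 5.79, 1.17 and 0.87. In both genes B and C lay below every wall array, and the mean reached the wall side through A alone. A was not the highest in every gene, since PAP20 had 3.21 in A, 5.02 in B and 5.19 in C.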

How the data were processed

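Total RNA of 27 samples was hybridised to Affymetrix arrays of 1 colour. The values are the authors' deposited log2 signals after RMA, per the submitters' processing notes. The log base is not given in the sources used here and was taken as 2 from the range, and 272 to 978 values per array lie at the floor of 0. Of 22810 probe sets, 64 controls and 3 that lack a value on some array were not tested. A platform annotation gives 13521 of the tested probe sets 1 gene, 13434 of them matched to a TAIR10.1 gene table used for names, 493 several genes, and leaves 8729 unnamed. The probe set with the highest mean stood for each gene.

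The difference wall minus pre-wall was fitted with limma 3.58.1 in R 4.3.3 (lmFit, eBayes) on 18 arrays with the time-course letter as a block, and p-values were adjusted after Benjamini-Hochberg over 22743 probe sets. A probe set was called at an adjusted p under 0.05. Values after ± are SE of log2 differences unless SD is written. The design text ties a letter to a time-course, and deviations of arrays that share a letter had a median correlation of 0.292 (45 pairs), against -0.113 for 90 pairs that share neither letter nor time. The p-values take arrays as independent given the letter, although the 3 arrays of a phase and letter come from successive samples. For arrays, their number limits the precision. In simulated data, 100 of 100 probe sets changed by 2 units and 96 of 100 changed by 1 unit were recovered. There were 14 false calls among the unchanged ones of 22743 simulated probe sets. The simulated arrays were independent given the letter and varied by the SD left after a mean per time was fitted. They held no change within a phase, and changes were placed only in probe sets with a mean above 2 log2 units. The measured arrays are successive samples and do change within a phase. How far these counts carry over to the measured arrays was not tested.

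The genes named are the 12 largest rises and 12 largest falls with the same sign in 3 time-courses, and members of gene lists with the largest differences. Of the falls, 1 gene and its family are not reported here. Other called members of short counts were named after their values were seen. The comparison, lists and members were chosen with earlier results of these data known. Some lists were written from the gene names in the annotation. Names such as XCP1, VND7 and CESA7 were not matched and are not analysed here. Alternatives covered normalization, filter, block, weights, RNA integrity, left-out arrays, times and time-courses.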

Additional observations from a re-analysis of the deposited data

Results flagged for a closer look

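Single arrays stood apart in 7 of 234 gene and phase combinations, where the gap to the next array, as a share of the group's range, exceeded Dixon's critical value for 9 arrays. Chance alone sets about 1 in 20 such groups apart. In the wall phase the highest arrays of PDF1.2 (gap 0.607) and TET9 (0.523) were from 60 h in C, that of SCPL45 (0.581) from 60 h in B and that of PUB43 (0.657) from 84 h in B. The lowest wall array of AUR2 (0.565) was from 60 h in B, at 3.10 against 4.45 for the next. In the pre-wall phase TBL34 was highest at 48 h in B (0.544) and AT5G56980 lowest at 24 h in B (0.494).

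The phase difference in time-course B was tested against the mean of those in A and C with an interaction term in limma. It differed for 109 probe sets (0.479%), 35 upward and 74 downward, of which 54 were also called in the pooled comparison. Among the named genes rpl20 differed by 1.93 and 3xHMG-box1 by 1.47, both larger in B. The part of RNA integrity in these was not tested.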

How the results depend on the processing

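Of 22743 probe sets, 2679 were called with all 18 arrays and the time-course as a block. That count stayed within 1.5 times under centring (2800, 29.2% of them higher), quantile normalization (2530, 42.8% higher, against 38.4% as reported), a signal minimum (2341), array weights (3145), a mean per time (3725), all 27 arrays (2802), eBayes with trend (2488) and without the 48 h (2591) or 60 h arrays (2970). It was 1363 with no replicate block, 787 with time-course means, 772 with a random block, 251 with the GAPDH covariate and 358 with a minimum of 1 log2 unit. Without the arrays of 24 h, 36 h, 72 h or 84 h it was 1439, 1443, 1693 or 1640. Leaving out A, B or C gave 1850, 1039 or 915, and leaving out single arrays 2135 to 2832. With 48 h against 60 h alone limma called 0, and 2567 had an unadjusted p under 0.05.

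Alternatives chosen after seeing the data gave 1578 without the 48 h arrays and B, 1 with the GAPDH covariate without B, and 12, 81 and 0 for A, B and C alone. The 84 h minus 60 h count of 1095 was 588 with no replicate block, and 1415, 336 and 92 without A, B and C. Its share higher was 62.4%, against 54.5% after quantile normalization. The 48 h minus 24 h count of 744 was 424 with no replicate block, 1402 with array weights, and 561, 465 and 177 without A, B and C. The 109 probe sets whose difference was set apart in B became 63 after quantile normalization, 284 with array weights and 4 to 514 without single B arrays: 455 without 24 h, 4 without 36 h, 22 without 48 h and 514 without 72 h.

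Signs turned for 11 named genes. GUT1 was 0.0113 with the GAPDH covariate, 0.016 without the 48 h arrays and B, and -0.1501 to -0.0601 over left-out arrays and time-courses. PRX52 was 0.2242 without 48 h, 0.3942 without 48 h and B, 0.0801 in C alone, and -0.7516 to -0.226 over left-out arrays and time-courses. BETA-VPE was 0.078 without 60 h, ACLB-1 -0.0528 with the GAPDH covariate without B, and PRXR1 -0.0068 in B alone. With 48 h against 60 h alone, MT1C was 0.6241, IAA18 0.0596, SCPL34 -0.4274, TON1B -0.0705, AUR1 -0.5541 and AUR2 -0.426. The cause of these shifts was not tested.

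The letters pair the arrays, per the design text, so the fit keeps them as a block. The 3 time-courses, unsorted cells and unnamed probe sets limit what can be said. Low signals near the floor can understate differences, and whether they exceed background was not tested.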
